A study of Mus musculus with 10 samples.

Results

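Ifi44, Ifi44l, Ifi27 and Ifi27l2a are interferon-inducible genes of 2 families. They were examined in bone marrow-derived macrophages (BMDMs) of WT and Rac2-/- mice, because genes of the interferon response were mostly higher in WT while members of these families had shown the opposite sign. The 4 genes were thus selected on the measured WT and Rac2-/- values of the same arrays, so their genotype difference is a description and carries no test. Of the 4 genes, 3 had a value. Ifi44l, Ifi27 and Ifi27l2a had 1 array feature each, 3 of 34760 features in all, and each of the 3 passed the filter on low values. Ifi44 had 0 features in the platform annotation and was not analysed here. Ifi27l2a did not have the sign that its place in this set implies, as its values below show.

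Interferons bind receptors on the cell surface and act through JAK kinases and STAT and IRF transcription factors, which switch on a large set of interferon-stimulated genes. Macrophages keep such a program at a low level in the resting state and raise it on contact with viruses or bacterial products. Ifi44 and Ifi44l encode related cytoplasmic proteins with a GTP-binding motif. Ifi44l is also listed under the name H28, a minor histocompatibility antigen of the mouse. Ifi27 and Ifi27l2a encode small hydrophobic proteins of the ISG12 family, found at mitochondria and the nuclear envelope.

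BMDMs were grown from C57BL mice of both genotypes in MCSF at 50 ng/ml for 7 days, with 20% FBS and 16% oxygen, and received no further treatment. The 5 WT and 5 Rac2-/- arrays were numbered 1 to 5 in each group. The n of 5 a group can be read as 5 mice, but 1 mouse for each array is not stated outright, so part of the array-to-array spread behind the p-values may be technical. The WT cells carry both Rac2 alleles, and the Rac2-/- cells come from mice with a homozygous deletion of this GTPase of blood cells.

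The Rac2 feature was 12.10 ± 0.27 in WT and 7.10 ± 0.29 in Rac2-/- (log2, SD, n = 5 each), with no overlap. No source used here says whether its probes lie in the deleted part. The labels give male mice, but all 10 arrays went against that label, with Xist at 10.49 to 11.54 and the Y-linked genes Kdm5d, Uty and Eif2s3y at 2.68 to 4.22. Arrays 1 and 2 stood apart from arrays 3 to 5 in both genotypes, with correlations over all features of 0.959 to 0.971 between these sets and 0.981 to 0.996 within them. The list of 11 macrophage markers was measured in full, and its mean level was 12.17 to 12.36 in WT, 12.22 to 12.32 in Rac2-/- 1 to 4 and 12.07 in Rac2-/- 5. In bulk RNA, fewer cells of a type and less RNA per cell cannot be told apart.

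The 250 bases before the start of Ifi44l, the member with the largest difference, are shown because interferon acts on its targets through short motifs in such windows. The sequence is that of RefSeq on GRCm38.p6, chr3:151762892-151763141, minus strand, and capitals mark matches to AANNGAAA, the core bound by IRF proteins, on either strand.

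Ifi44l promoter: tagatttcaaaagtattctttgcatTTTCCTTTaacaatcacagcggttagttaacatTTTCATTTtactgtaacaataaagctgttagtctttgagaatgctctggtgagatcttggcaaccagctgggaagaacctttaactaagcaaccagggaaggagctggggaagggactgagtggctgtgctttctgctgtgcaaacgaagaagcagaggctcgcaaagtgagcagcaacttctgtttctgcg

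The window held 2 matches to this core, at positions -225 and -192 counted from the start. The core occurs in 21.3% of the 32851 windows of this length in the table. There was no match to GAAANNGAAA, a pair of cores that overlaps the first motif and occurs in 2.98% of windows, or to TTCNNNGAA, the element bound by STAT dimers, which occurs in 7.02%. The Ifi44 window held 3 matches to the core. The table had windows for 2 of the 4 genes, and a match is a description of letters and not a site.

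Ifi44l had by far the widest gap of the 3 features. Its values in WT 1 to 5 were 4.69, 4.91, 4.93, 4.98 and 4.63 (log2). In Rac2-/- 1 to 5 they were 11.56, 11.20, 10.88, 10.98 and 6.65. The lowest Rac2-/- array, replicate 5, lay 1.67 above the highest WT array, so the groups did not overlap. The mean was 4.83 ± 0.16 in WT and 10.26 ± 2.03 in Rac2-/- (SD, n = 5 each), a WT minus Rac2-/- difference of -5.43 (SE 0.91), or 43.1-fold. In absolute size the difference was rank 1 of all features tested, a description of the values that chose the gene. Ifi44l passed the filter only through Rac2-/-, since its WT values lay near the lowest fourth-highest value that the filter kept, 4.73. No detection call was used here, so whether the WT signal differed from background was not tested, and the fold and the rank rest on that WT level.

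The size of the Ifi44l difference depended on Rac2-/- 5. Without it the difference was -6.33, or 80.5-fold, and the SD of the remaining 4 Rac2-/- arrays was 0.30. Against the mean of Rac2-/- 3 and 4, the arrays of the same set, Rac2-/- 5 differed by -4.29, a 19.5-fold lower value. By size this shift ranked 2 among all features tested, against 459 for Ifi27 and 1242 for Ifi27l2a. The gene and the array were both singled out with their values known, so the rank is a description. The same array remained 1.82 above the WT mean, a 3.53-fold higher value. Within sets, the difference was -6.58 for arrays 1 and 2 and -4.66 for arrays 3 to 5, where Rac2-/- 5 lies.

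**Figure D1:**
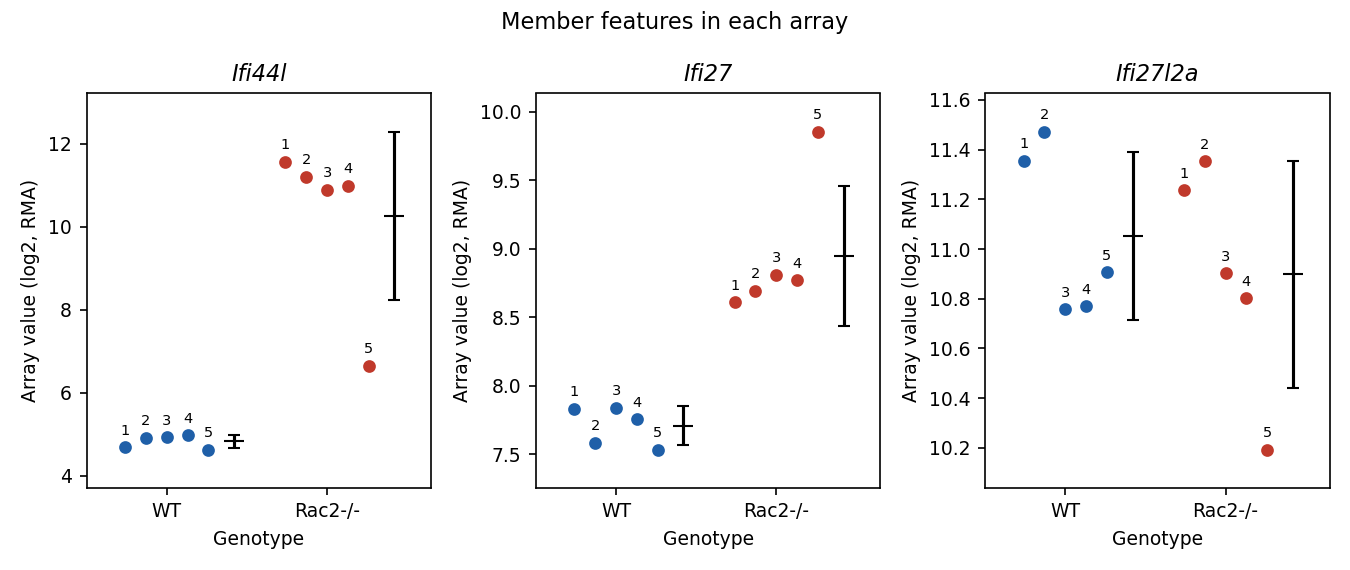
Array values (log2, RMA) of Ifi44l, Ifi27 and Ifi27l2a, each panel with its own axis. Points are single arrays with their replicate number, and the black bar is the mean with SD. Ifi44l and Ifi27 have all Rac2-/- arrays above all WT arrays, Ifi27l2a overlaps, and Rac2-/- 5 is the lowest Rac2-/- array for Ifi44l and Ifi27l2a and the highest for Ifi27.

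Ifi27 was higher in Rac2-/- by a smaller amount and with tighter arrays. WT 1 to 5 had 7.83, 7.58, 7.84, 7.75 and 7.53 (log2). Rac2-/- 1 to 5 had 8.61, 8.69, 8.81, 8.77 and 9.85. All Rac2-/- arrays were above all WT arrays, with a gap of 0.77. The mean was 7.71 ± 0.14 in WT and 8.95 ± 0.51 in Rac2-/- (SD, n = 5 each), a difference of -1.24 (SE 0.24), or 2.36-fold. It ranked 180 among all features tested in absolute size and 57 in the direction of Rac2-/-, a description of the values that chose the gene. Here Rac2-/- 5 was the highest array, 1.06 above the mean of Rac2-/- 3 and 4 (2.09-fold), the opposite side from Ifi44l. Without it the difference was -1.01 (2.02-fold). It was -0.94 in arrays 1 and 2 and -1.44 in arrays 3 to 5.

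Ifi27l2a, the close relative of Ifi27, did not share this difference. WT 1 to 5 had 11.36, 11.47, 10.76, 10.77 and 10.91 (log2), and Rac2-/- 1 to 5 had 11.24, 11.35, 10.90, 10.80 and 10.19. The groups overlapped, and the difference of 0.15 (SE 0.25) between means of 11.05 ± 0.34 and 10.90 ± 0.46 (SD, n = 5 each) was smaller than the spread of either group. Without Rac2-/- 5 it was -0.02. The values of Ifi27l2a split by array set instead. The mean of WT 3 to 5 differed from that of WT 1 and 2 by -0.60, and that of Rac2-/- 3 and 4 from Rac2-/- 1 and 2 by -0.44. Rac2-/- 5 differed from Rac2-/- 3 and 4 by a further -0.66. Ifi27 and Ifi27l2a overlap in the RefSeq annotation on chromosome 12, so their values are uncertain, and whether their features share signal was not tested.

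Having all Rac2-/- arrays above all WT arrays was found for 589 of all features tested, or 2.18%. Of the 3 member features, 2 had this pattern. Since the members were chosen by this contrast, nothing is read from that count.

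The other interferon-stimulated genes were read from a list of 85, of which 71 had a feature with a single symbol. The list leaves out the members and was drawn up with earlier results of these data known. Its counts are thus not independent of these data. WT was higher in 70 of the 71 and Rac2-/- in 1, and the median difference was 0.71 against 0.00 for all features. In the limma test, with Benjamini-Hochberg adjustment over all features tested, 24 of the 71 were higher in WT at an adjusted p under 0.05. Among all features 1.11% were called higher in WT. No listed gene was called higher in Rac2-/- (0 of 71, also 0 at an unadjusted p under 0.05, which 5.06% of all features passed in that direction, and 0 in every alternative run), where 0.795% of all features were. In 41 of the 71 genes all WT arrays were above all Rac2-/- arrays, and in 0 the reverse, where all features had 2.34% and 2.18%. The count of 24 became 41 with the replicate number as a block, where 3.03% of all features were called higher in WT and 3.32% higher in Rac2-/-. Leaving out 1 WT array gave 9 (without WT 3), 10 (WT 4), 12 (WT 5), 13 (WT 2) and 19 (WT 1). Leaving out 1 Rac2-/- array gave 14 (without Rac2-/- 3 or 4), 15 (Rac2-/- 2), 22 (Rac2-/- 5) and 41 (Rac2-/- 1).

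The 5 called genes with the largest differences were Slfn1, Gbp4, Ifi205, Gbp9 and Mx1. Slfn1, a schlafen protein that restrains lymphocyte growth, differed by 2.64 (SE 0.42, limma adjusted p = 0.0114). The guanylate-binding proteins Gbp4 and Gbp9, which act on intracellular microbes, differed by 2.50 (SE 0.32, limma adjusted p = 0.00424) and 1.89 (SE 0.30, limma adjusted p = 0.0109). Ifi205, a DNA sensor-related protein of the p200 family, differed by 2.44 and the antiviral GTPase Mx1 by 1.82. At the other end stood Ifitm2, the 1 gene on the Rac2-/- side, with -0.08 (SE 0.08, limma adjusted p = 0.950). Next to it were Ifitm3 with 0.07, which blocks viral entry like Ifitm2, the surface protein Ly6e with 0.09, the ISGF3 subunit Irf9 with 0.09 and the ADP-ribosyltransferase Parp14 with 0.09, none of them past the threshold. Beside this range, -0.08 to 2.64, stand the member differences of -5.43 for Ifi44l, -1.24 for Ifi27 and 0.15 for Ifi27l2a. The members were picked for the opposite sign, so nothing is read from the side on which the first 2 lie.

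**Figure D2:**
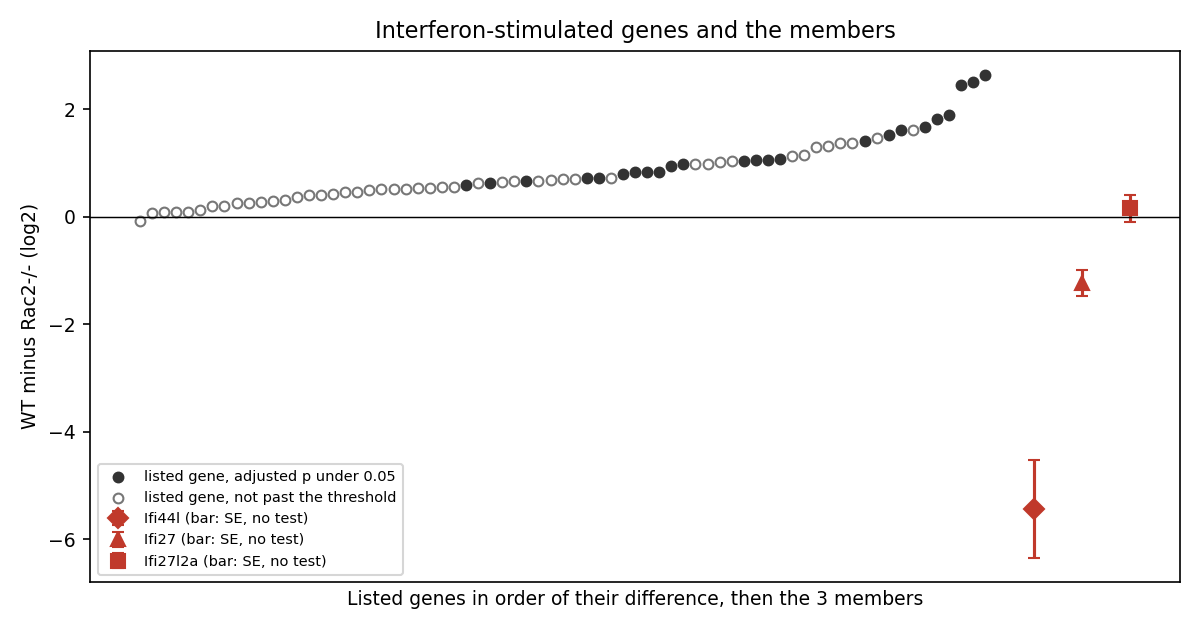
WT minus Rac2-/- (log2) for the 71 measured interferon-stimulated genes in order of their difference, and for the 3 members in red with the SE. Filled circles passed the limma test. The listed genes run from -0.08 to 2.64, with 70 of 71 above 0, while Ifi44l is at -5.43, Ifi27 at -1.24 and Ifi27l2a at 0.15.

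Interferon ligands, receptors and signalling genes mostly had small differences. Of 27 listed, 24 were measured, with 18 on the WT side and 6 on the Rac2-/- side. By limma 2 were called higher in WT and 0 in Rac2-/-, where 1.11% and 0.795% of all features were. With the replicate block the counts were 4 and 1, where 3.03% and 3.32% of all features were called. The block adds Socs1 and Irf5 on the WT side and Ifngr1, a chain of the type II receptor, on the Rac2-/- side. The genes called without the block were Stat2, a transcription factor of the type I interferon signal, with 0.79 (SE 0.15, limma adjusted p = 0.0245), and Usp18, which dampens that signal at the receptor, with 1.05 (SE 0.16, limma adjusted p = 0.0110). Both also belong to the interferon-stimulated list and were already counted among its called genes. The type I receptor chains Ifnar1 and Ifnar2 had differences of -0.12 and 0.05, and the ligand Ifnb1 had 0.38. Irf7, the factor that amplifies interferon production, had 0.71, and the inhibitor Socs1 had 0.51. None of these 5 genes passed the threshold without the block.

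The relatives and neighbours of the members gave no called gene in either direction by limma (0 of 10 measured, of 12 listed), with 0 higher in WT and 3 higher in Rac2-/- at an unadjusted p under 0.05 (Adgrl2, Asb2 and Dnajb4), where 5.3% and 5.06% of all features passed. Ifi27l2b, next to Ifi27 and of the same family, differed by 0.12 (limma adjusted p = 0.848). Beside Ifi44 and Ifi44l on chromosome 3, the adhesion receptor gene Adgrl4 differed by -0.04, the prostaglandin receptor gene Ptgfr by -0.07 and Gipc2 by 0.07. The chaperone gene Dnajb4, next after Gipc2, differed by -0.35, with Rac2-/- at 9.18 to 9.64 above WT at 8.96 to 9.09, but was not called (limma adjusted p = 0.101, 0.0729 with the replicate block). Adgrl2, an adhesion receptor gene beyond Adgrl4, differed by -0.67 with overlapping groups, at 9.07 to 10.39 in WT and 9.96 to 10.80 in Rac2-/-, and was called with the replicate block alone of these 2 limma fits (adjusted p = 0.0170, against 0.437 without it). On the side of Ifi27l2a and Ifi27, the helicase gene Ddx24 differed by 0.22, Otub2 by -0.48, Asb2 by -0.81 and Serpina10 by 0.13. None of these neighbours approached the difference of Ifi44l, but Asb2 came nearer to that of Ifi27, -1.24. Without Rac2-/- 5, Asb2 differed by -1.03 and Ifi27 by -1.01. Asb2 was not called (limma adjusted p = 0.202), and its groups overlapped when Rac2-/- 5 was included.

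Rac2-/- 5 also stood apart in other genes, and 2 lists are described here. Other lists shifted too against the mean of Rac2-/- 3 and 4. The interferon signalling list had 18 genes lower and 6 higher in Rac2-/- 5. The plasmacytoid dendritic cell markers had 5 lower and 0 higher, and the B cell markers 1 lower and 2 higher. Of the 71 interferon-stimulated genes, 70 were lower in Rac2-/- 5 than in the mean of Rac2-/- 3 and 4, with a median of -0.46, and in 50 it was the lowest Rac2-/- array. The exception was Cxcl10, a chemokine gene named here after its value was seen, with 0.44 above. Among all features tested, 14101 were lower in Rac2-/- 5 than in the mean of Rac2-/- 3 and 4, and 12930 were higher. Their median shift was -0.01. Rac2-/- 5 was the lowest Rac2-/- array in 5196 of all features tested and the highest in 4754. The mean level of the interferon list was 11.03 to 11.22 in WT, 10.22 to 10.73 in Rac2-/- 1 to 4 and 9.80 in Rac2-/- 5. Of 25 measured genes of cycling cells, all 25 were highest in Rac2-/- 5 among the Rac2-/- arrays, by a median of 2.27 over Rac2-/- 3 and 4. Their mean level was 6.79 to 7.32 in WT, 7.05 to 7.37 in Rac2-/- 1 to 4 and 9.59 in Rac2-/- 5, and the proliferation marker Mki67 reached 10.51 there. The part of these shifts in the member values was not tested.

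**Figure D3:**
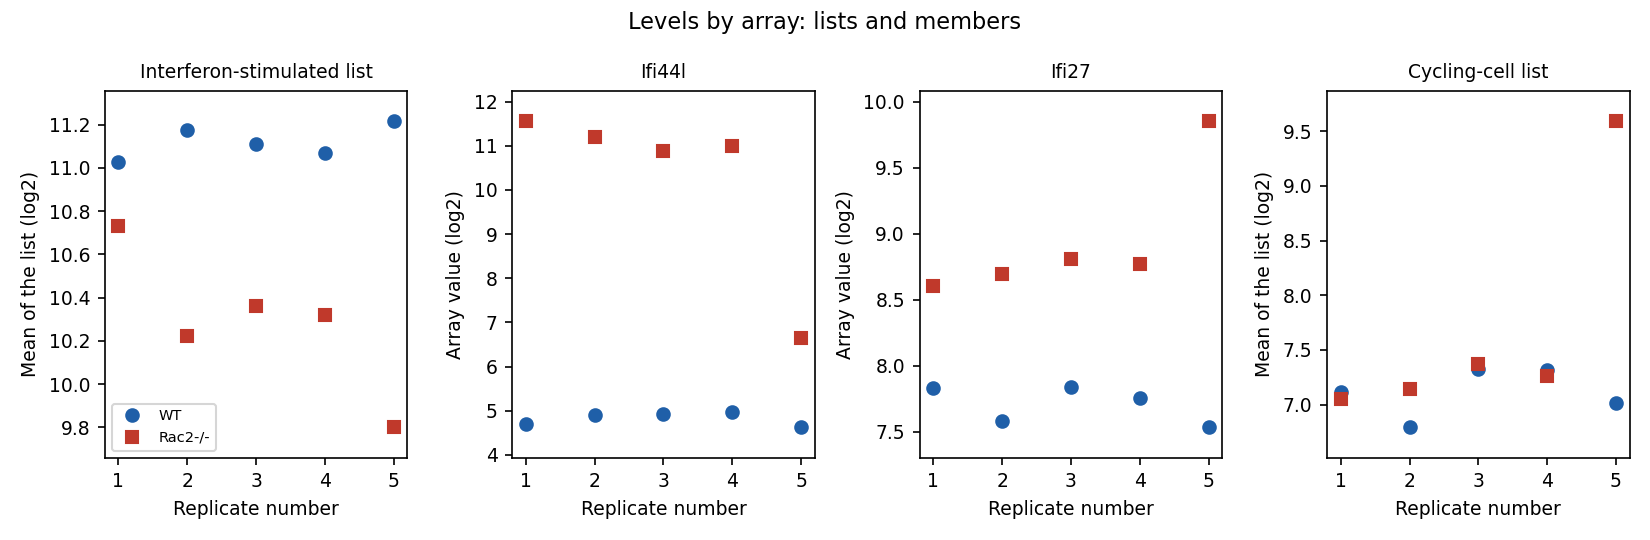
Log2 level by replicate number in WT (blue circles) and Rac2-/- (red squares): the mean of the 71 interferon-stimulated genes, Ifi44l, Ifi27, and the mean of 25 genes of cycling cells. In Rac2-/- 5 the interferon list falls to 9.80 and Ifi44l to 6.65, while Ifi27 is at 9.85 and the cycling list at 9.59.

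The 3 members did not move the same way in this array. Ifi44l and Ifi27l2a were low in Rac2-/- 5 together with the interferon-stimulated genes, with -4.29 and -0.66 against Rac2-/- 3 and 4, whereas Ifi27 was high there with 1.06. The shift of Ifi44l was larger than that of every gene in the interferon list, where the widest was Slfn1 with -2.37. Without Rac2-/- 5 the interferon list still had a median difference of 0.59, while Ifi44l and Ifi27 kept differences of -6.33 and -1.01.

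**Figure D4:**
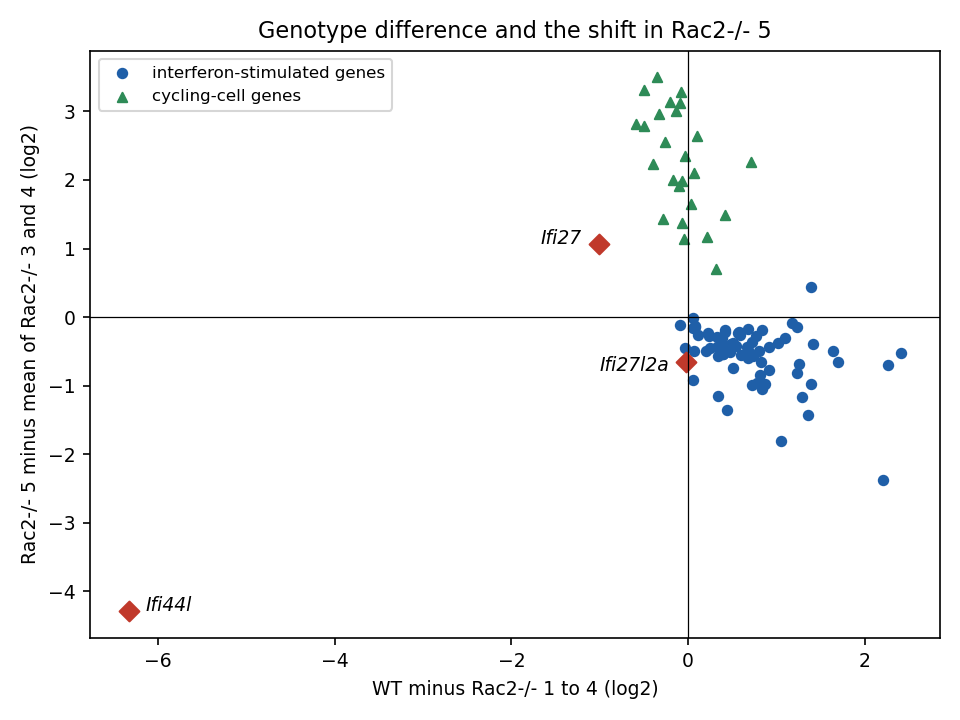
WT minus the mean of Rac2-/- 1 to 4 (log2, horizontal) against Rac2-/- 5 minus the mean of Rac2-/- 3 and 4 (log2, vertical) for the interferon-stimulated genes, the genes of cycling cells and the members (red). Ifi44l sits at -6.33 and -4.29, away from both lists, Ifi27 at -1.01 and 1.06, and Ifi27l2a at -0.02 and -0.66.

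Markers of other cell types were read as mean levels of lists. Of 11 marker lists, the macrophage list included, 3 had group levels that did not overlap. The mean level was 6.35 to 6.76 in WT and 6.86 to 7.07 in Rac2-/- for B cells (3 of 6 markers measured), 5.55 to 6.34 and 5.14 to 5.41 for mast cells and basophils (5 of 8), and 7.95 to 8.44 and 7.45 to 7.91 for plasmacytoid dendritic cells (5 of 6, among them Bst2, which is interferon-inducible too). No gene of these 3 lists passed the limma test without a block. With the replicate block Siglech and Ccr9 of the plasmacytoid list were called higher in WT (limma adjusted p = 0.0117 and 0.0281) and Cd79b of the B cell list higher in Rac2-/- (0.0144). That fit called 3.03% of all features higher in WT and 3.32% higher in Rac2-/-. It also called genes of other lists. The counts higher in WT and in Rac2-/- were 3 and 1 for fibroblast and stroma and 1 and 1 for macrophage. They were 1 and 0 for monocyte and 0 and 1 for conventional dendritic cell. The monocyte list (5 of 7 measured) overlapped in its mean level, at 8.25 to 9.93 in WT and 8.51 to 9.32 in Rac2-/-, but 2 of its genes had groups that did not overlap, in opposite directions. Over all features, all WT arrays were above all Rac2-/- arrays in 2.34%, and the reverse held in 2.18%. Plac8 differed by 2.36 (limma adjusted p = 0.0257) and F13a1, a subunit of a clotting factor, by -1.997 (limma adjusted p = 0.0616). The marker genes named here were chosen after their values were seen, and the part of these lists in the member values was not tested.

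The genes most like each member were ranked by Pearson r of log2 values, over 16882 named genes. Since the arrays share 2 genotypes and 2 sets, r describes these patterns and carries no test. Over the 10 arrays Ifi44l was most like Ppp2r1b (r = 0.989), a scaffold subunit of the phosphatase PP2A, followed by Rcbtb2, Tm2d2, Lpar6 and Fzd1. Ppp2r1b and Rcbtb2 were also among the 5 most like it over the 9 arrays without Rac2-/- 5 (r = 0.992 and 0.990), beside Angptl7, Ehd1 and Hdlbp. Ppp2r1b went from a mean of 8.78 in WT to 10.12 in Rac2-/- and was 9.04 in Rac2-/- 5.

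Ifi27 was most like the tubulin gene Tubb6 (r = 0.986), then Add3, Vcan, Itgax and Acat1 over the 10 arrays. Over 9 arrays these were Fcrls (r = 0.994), Inpp4b, Smim3, Vcan and Lpcat1, so that the matrix proteoglycan gene Vcan was in both sets. Ifi27l2a was most like Gadd45g (r = 0.984), 2210016F16Rik, Tmem51, Slc2a9 and Dyrk2 over the 10 arrays, and Bet1 (r = 0.997), Vti1b, Bcap31, Nedd1 and Ndufs5 over 9, with no gene in both sets. None of the genes named for one member was named for another.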

How the data were processed

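RNA of 10 BMDM cultures, 5 WT and 5 Rac2-/-, was measured on Affymetrix whole-transcript arrays for mouse. The authors deposited log2 values from RMA (submitters' processing notes, no version given), which corrects background, normalizes by quantiles and sums up probes. Such values compress differences of dim features. The methods name ComBat for unnamed batches, but arrays 1 and 2 still stood apart from arrays 3 to 5, and no source used here says whether it entered these values. No filter had been applied to the 34760 features. The number of arrays limits precision.

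Features were named from the platform annotation, updated through RefSeq (GRCm38.p6): 21640 had 1 symbol, 1321 several and 11799 were not listed. For genes with several features the one with the highest mean was read. A filter kept the 27031 features that ranked highest by their fourth-highest value, and these were tested two-sided in R 4.3.3 with limma 3.58.1 (lmFit, eBayes, no block), Benjamini-Hochberg adjusted, at a threshold of 0.05. The procedure was tested on simulated data. Members and lists were chosen with earlier results of these data known.

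The text names every member feature, Rac2, the 5 largest called differences and the 5 genes nearest the Rac2-/- side of the interferon list, called relatives and nearest neighbours, Ifnb1, Ifnar1, Ifnar2, Stat2, Irf7, Irf9, Socs1, Usp18, Mki67, and the 5 genes most like each member. Some genes under this rule are not reported here. Other genes were named after their values were seen. Deviations of same-numbered arrays from group means correlated at 0.493 to 0.716, over 0.1 in each pair. Other numbers of the same set correlated at 0.476 to 0.724, and arrays of different sets at -0.716 to -0.515. Same-numbered arrays were thus not set apart from other arrays of their set, so the values do not show a pairing by number. The labels give replicate numbers without saying that they pair the arrays. The replicate block was therefore run as an alternative and not as the main fit. Alternatives were the replicate block, another filter or none, trended variance, array weights, quantile normalization, median centring, feature means, an unmoderated test, leaving out each array and, after seeing the data, a term for the array sets and fits within them.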

Additional observations from a re-analysis of the deposited data

Results flagged for a closer look

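Of the 6 groups of 5 arrays tested (3 features in 2 genotypes), 2 held a value far from the rest by Dixon's ratio of its gap to the whole range of its group. Both values were those of Rac2-/- replicate 5, an array that only the 3 Rac2-/- groups contain. Chance gives such a value in about 1 in 20 independent groups, but these groups share arrays. That array and these genes were also singled out with their values known, so nothing is read from the count. Ifi44l was 6.65 in that array, with a ratio of 0.863, below the other Rac2-/- arrays. Ifi27 was 9.85 there, with a ratio of 0.839, above the others.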

How the results depend on the processing

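The count of interferon-stimulated genes called higher in WT, 24, became 41 with the replicate block, which takes the numbers as pairing the arrays, 55 with array weights, 14 with an unmoderated test per feature and, in settings added after seeing the data, 54 with a term for the array sets and 45 with arrays 3 to 5 alone. Leaving out 1 array gave 9 to 41. The other 6 of the 11 alternatives beside the left-out arrays stayed within 1.5 times of it. The count higher in Rac2-/- was 0 in all 11 and in all 10 fits that left out an array. The cause of these changes was not tested. With the replicate block, 1 neighbour gene, Adgrl2, was called higher in Rac2-/-, as were Adgrl2 and Dnajb4, and Ddx24 higher in WT, with the term for the array sets. Ifi44l ranged over alternatives from -6.58 to -4.66 and over left-out arrays from -6.33 to -5.10, Ifi27 from -1.44 to -0.94 and from -1.32 to -1.01. Ifi27l2a lay between 0.00 and 0.18, and between -0.02 and 0.27, its sign turning without Rac2-/- 5. Signal over background, not available here as a call, limits the fold of Ifi44l, which is dim in WT.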
